A study of Mus musculus with 12 samples.

Results

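The comparison described here is the priming of MTCH2 F/F control cells, that is, mouse epiblast-like cells (EpiLCs) against the naïve embryonic stem cells (ESCs) they were made from. Its members were chosen by label: the 3 MTCH2 F/F ESC libraries kept in 2i/L and the 3 MTCH2 F/F EpiLC libraries kept in Activin A/FGF2 (A/F), which are 6 of the 12 poly-A RNA-seq libraries of the series. The other 6 libraries are MTCH2-/- cells in the same 2 media, 3 in each. Their labels carry the same clone numbers with CRE added: they are F/F cells treated with Cre recombinase, which deletes the floxed gene, and the F/F libraries had no such treatment, so loss of Mtch2 and exposure to Cre cannot be told apart. All cells were on a C57BL/6 background and came from E3.5 embryos.

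Both F/F groups carried floxed alleles of Mtch2, the gene of an outer mitochondrial membrane protein, and are called wild type in the labels. Lines were derived and maintained on irradiated mouse embryonic fibroblasts with serum, and for priming the cells were plated without feeders in serum-free medium. 2i/L contained LIF, the GSK3 inhibitor CHIR99021 and the MEK inhibitor PD0325901. A/F contained Activin A, FGF2 and a little serum replacement, was given for 2 days on Matrigel, and left out LIF and both inhibitors. The numbers 1 to 3 in the labels are taken as 3 F/F clones, each sampled in both media. A clone is a single established line, so the 3 clones are the replicates.

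Naïve pluripotency is the state of the preimplantation epiblast. LIF acts through STAT3, GSK3 inhibition stabilizes β-catenin, and MEK inhibition keeps ERK signalling low, and together these inputs sustain a network of transcription factors that includes Nanog, Esrrb, Klf4 and Tfcp2l1. When the inhibitors are withdrawn and Activin and FGF are supplied, mouse ESCs lose this network, take up Otx2 and the de novo DNA methyltransferases, and come to resemble the early postimplantation epiblast, a stage called formative, before lineage genes are switched on.

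Total counts ranged from 17453328 to 21147732 per F/F library. The floxed gene itself was present in all 6 of them: Mtch2 was at 175, 183 and 172 CPM in ESC libraries 1, 2 and 3 and at 122, 122 and 123 in EpiLC libraries 1, 2 and 3, while the MTCH2-/- libraries averaged 1.86 CPM as ESCs and 1.88 CPM as EpiLCs. CPM is the usual depth-normalised read count, here relative to the library size after TMM scaling, and values are compared between media, not between genes, since CPM is not divided by gene length. Any 2 libraries of the same medium were 0.188 to 0.232 apart in root mean square log2 distance over the tested genes, and any 2 libraries of different media were 0.899 to 0.987 apart. The share of counts on mitochondrially encoded genes was 1.98% to 2.11% in ESCs and 1.41% to 1.46% in EpiLCs.

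Priming changed a large part of the transcriptome. Of 17369 genes tested by edgeR's quasi-likelihood test, 2285 (13.2%) were higher in EpiLCs and 2463 (14.2%) were lower, with a call meaning a Benjamini-Hochberg adjusted p under 0.05 over all tested genes and a change of at least 2-fold. This is 27.3% of tested genes in either direction, and at the adjusted p alone it is 64%, so a gene called here is not rare and the counts for each gene group below are read against these shares. The median log2 fold change over all tested genes was -0.01. Changes of at least 4-fold were seen for 1051 genes that rose and 1085 that fell, and of at least 16-fold for 239 and 283. Called genes were less abundant than tested genes as a whole: the median over genes of the mean CPM was 4.34 for those that rose, 4.62 for those that fell and 16.7 for all. In 71.5% of all tested genes the 3 ESC and 3 EpiLC libraries did not overlap. In bulk RNA, fewer cells with a transcript and less transcript per cell cannot be told apart, and this holds for each value given here.

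**Figure D1:**
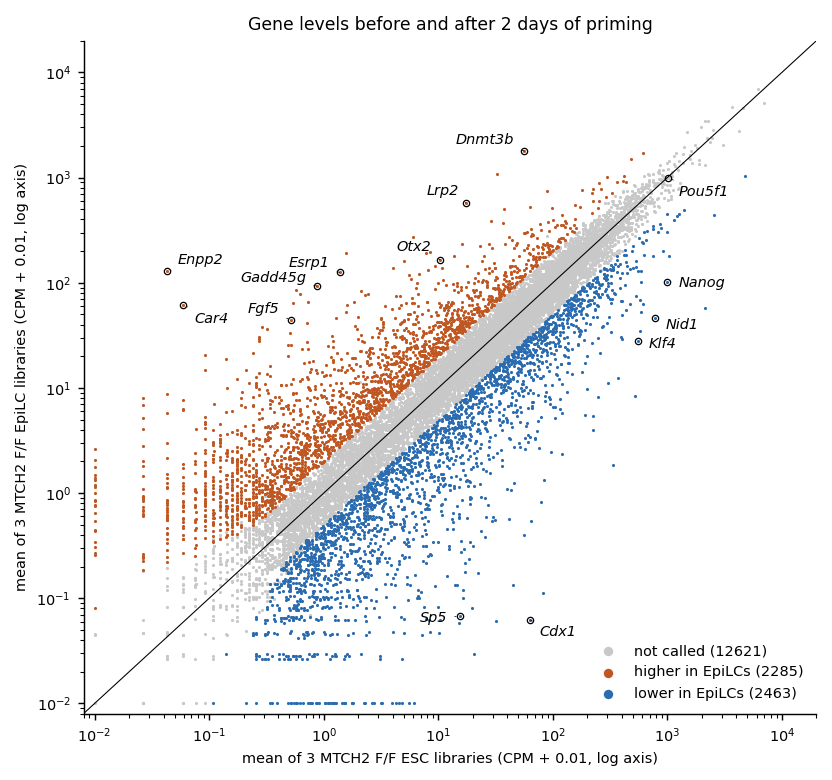
Mean level of each tested gene in the 3 MTCH2 F/F ESC libraries (horizontal, CPM + 0.01, log axis) against the mean in the 3 MTCH2 F/F EpiLC libraries (vertical, same scale), with 1 point per gene. The 2285 genes higher in EpiLCs lie above the diagonal and the 2463 lower ones below it, and Pou5f1 lies on it.

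The genes at the far ends of this comparison went from near absence to clear expression or the reverse. Enpp2, which encodes autotaxin, the secreted enzyme that makes lysophosphatidic acid, was at 0, 0 and 0.0991 CPM in the ESC libraries and at 114, 136 and 134 CPM in the EpiLC libraries. These are 2 reads against 7185 over the groups, a 3903-fold difference with an exact 95% counting interval of 1080 to 32237. Car4, a membrane carbonic anhydrase, had 3 reads in ESCs and 3467 in EpiLCs, a 1256-fold difference (95% counting interval 429 to 6092). Intervals of this kind cover counting error only. Both genes passed the test, with adjusted p = 3.67e-09 and 1.88e-06.

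At the other end, Cdx1, a homeobox gene of the posterior embryo, had 3881 reads in ESCs and 3 in EpiLCs, 1191-fold fewer (407 to 5776). Slc15a1, an intestinal peptide transporter, had 1251 reads against 1, a ratio of 1151 (206 to 45513), and Dmgdh, the mitochondrial dimethylglycine dehydrogenase, 1934 against 3, a ratio of 593 (203 to 2880). Aqp3, an aquaglyceroporin, was at 308, 332 and 356 CPM in ESCs and at 1.64, 1.07 and 2.76 in EpiLCs. Spic, an ETS-family factor, was at 47.6, 46.0 and 41.3 CPM and then at 0.109, 0.145 and 0.117. In GRCm38 coordinates from the GENCODE annotation these genes lie at the following places: Enpp2 at chr15:54838901-54952892, Car4 at chr11:84957786-84966044, Cdx1 at chr18:61018862-61036199, Aqp3 at chr4:41092722-41098183 and Spic at chr10:88674772-88685015. In each gene that fell here the lowest ESC library stood far above the highest EpiLC library.

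Other genes with large rises included several regulators. Myrf, a membrane-tethered transcription factor known from myelination, was at 1.59, 1.51 and 1.59 CPM in ESCs and 185, 203 and 188 CPM in EpiLCs, a log2 fold change of 6.94 (SE 0.15, adjusted p = 4.53e-14). Insm1, a zinc-finger factor of neuroendocrine cells, rose by 7.87 (SE 0.26) and Cxcl12, a chemokine, by 7.06 (SE 0.19) on the same scale. Bcl11a, a zinc-finger repressor, went from 0.248, 0.244 and 0.446 CPM to 36.5, 37.9 and 33.8 CPM, with no overlap. Trpm1, Mras and Prdm14 were among the largest falls, with log2 fold changes of -9.49, -6.61 and -6.0.

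Of the 336 genes named by rule 117 share exon bases with another annotated gene, and the kit did not mark strand, so reads of such pairs cannot be told apart. This touches Tbx3, Otx2, Dnmt3a, Lef1, Axin2, Notum, Esrp1 and Enpp2, each of which shares bases with an annotated non-coding or predicted gene. Others share bases with a protein-coding gene, among them Dnmt3l with Aire, Fgfr2 with Ctbp2, Ccnd3 with Bysl, Col4a1 with Col4a2 and Hdac7 with Slc48a1.

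The naïve network fell in EpiLCs. Of 14 naïve transcription factors tested, 11 fell, none rose and 3 were not called, with a median log2 fold change of -2.91 against -0.01 over all genes, and of 16 further naïve markers 13 fell and none rose, with a median of -1.88. The background share of genes that fell was 14.2%. Nanog, a homeobox factor at the centre of the network, was at 1014, 979.5 and 1003 CPM in ESC libraries 1, 2 and 3 and at 96.0, 75 and 136 CPM in EpiLC libraries 1, 2 and 3. The annotation places Nanog at chr6:122707489-122714633, Klf4 at chr4:55527143-55532466 and Tfcp2l1 at chr1:118627945-118685168. The highest EpiLC library of Nanog was far under the lowest ESC library, and the log2 fold change was -3.29 (SE 0.19, adjusted p = 2.34e-08). Klf4, a Krüppel-like factor downstream of LIF and STAT3, went from 504, 533 and 615 CPM to 23.0, 16.3 and 45.0 CPM, a change of -4.30 (SE 0.32, adjusted p = 1.42e-06). Tfcp2l1, a grainyhead-family factor that both LIF and β-catenin act on, went from 2030.2, 2156 and 2202 CPM to 47.3, 43.6 and 82 CPM. Its change of -5.21 (SE 0.22) was far larger than the spread between clones.

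The depth of the fall differed from factor to factor. Prdm14, a PR-domain protein that holds back FGF signalling and DNA methylation in naïve cells, kept 1.15, 0.921 and 1.88 CPM of 86.2, 83.8 and 79.6 CPM (log2 fold change -6.0, SE 0.17). Nr5a2, an orphan nuclear receptor (-5.13), and Tbx3, a T-box factor (-4.93), fell nearly as far. Klf2 fell by 3.72, and Esrrb, the estrogen-related receptor β, went from 941, 1097 and 1059.7 CPM to 145, 139 and 256 CPM (log2 fold change -2.52, SE 0.19). Nr0b1 (-2.17), Klf5 (-1.84) and Zfp42 (-1.6) fell least among the factors called. Gbx2 (-0.59, adjusted p = 0.0166) and Mybl2 (-0.79, adjusted p = 2.62e-05) were lower but under 2-fold, and Sall1 was higher by 0.53 (adjusted p = 7.51e-04), again under 2-fold.

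Zfp42, also called Rex1, is the marker by which exit from the naïve state is often followed. It was at 119.8, 123 and 115 CPM in ESCs and at 37.2, 37.6 and 43.4 CPM in EpiLCs, groups that did not overlap, so transcript remained after 2 days. Its promoter is shown because an octamer motif, the letters bound by POU factors such as OCT4, and a KLF motif both stand in it. The sequence is RefSeq's, build GRCm38.p6, chr8:43306960-43307259 on the minus strand, from 250 bases before to 50 bases after the gene's start, and the capitals mark the motifs.
Zfp42: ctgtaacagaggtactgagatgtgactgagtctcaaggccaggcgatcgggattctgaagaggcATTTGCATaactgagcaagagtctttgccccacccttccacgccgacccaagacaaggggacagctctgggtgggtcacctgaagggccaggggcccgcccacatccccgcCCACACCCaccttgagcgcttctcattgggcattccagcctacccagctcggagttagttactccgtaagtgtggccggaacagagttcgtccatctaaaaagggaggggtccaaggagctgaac
The octamer ATGCAAAT is found here on the opposite strand at -186 to -179 from the start and the KLF motif GGGTGTGG, also on the opposite strand, at -75 to -68. Searched on both strands, they occur in 1.75% and 3.57% of 27025 mouse promoters of the same length. A match is a description of letters and says nothing of binding.

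Among the further naïve markers, Jam2, a junctional adhesion molecule, fell the most, from 478, 531 and 557 CPM to 5.13, 5.87 and 14.4 CPM (log2 fold change -5.97, SE 0.33). Tcl1, an AKT co-activator, fell by 4.25 on the log2 scale, and Khdc3, a maternal-effect gene, had a change of -4.03. Tdh, the mouse threonine dehydrogenase on which naïve ESCs depend, went from 597, 636 and 590.2 CPM to 47.7, 59.7 and 82 CPM, a change of -3.27 (SE 0.16). Alpl, the alkaline phosphatase stained for in colony assays, fell by 3.07. Dppa3 (Stella) was at 12.1, 13.3 and 13.0 CPM and then at 2.67, 1.55 and 2.17 CPM, a change of -2.59 (SE 0.20). In all these genes the 2 media did not overlap.

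Fgf4, the FGF ligand that ESCs make themselves, was an exception among the listed markers. It was at 358, 360.0 and 368 CPM in ESCs and at 309, 324 and 380.2 CPM in EpiLCs, groups that overlapped, with a log2 fold change of -0.10 (adjusted p = 0.317). Tex19.1 (-0.48) and Trim6 (-0.37) were lower at the adjusted p but under 2-fold.

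**Figure D2:**
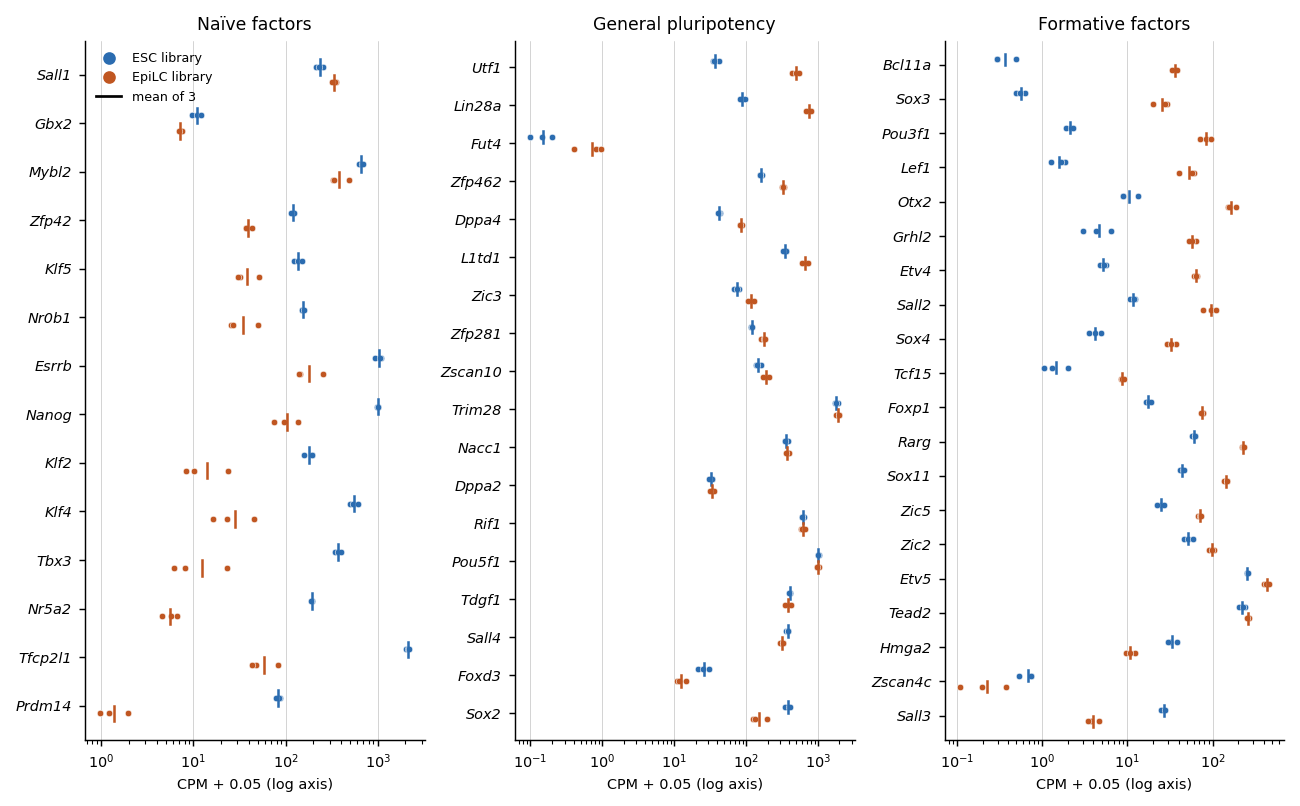
Level of each naïve factor, general pluripotency gene and formative factor in the 3 ESC and the 3 EpiLC libraries of MTCH2 F/F cells (CPM + 0.05, log axis), with 1 point per library and a bar at the mean of 3. The naïve panel has its EpiLC points to the left for the 11 factors that fell, the formative panel has them to the right for the 14 that rose, and the Pou5f1 points overlap.

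Of 18 general pluripotency genes, known from both naïve and primed cells, 5 rose, 2 fell and 11 were not called, and at the adjusted p alone 9 were higher and 3 lower. Pou5f1, which encodes OCT4, was at 996, 1026 and 1012 CPM in ESCs and 974, 1028 and 972 CPM in EpiLCs. Its groups overlapped and the log2 fold change was -0.03 with SE 0.09 (adjusted p = 0.79). Tdgf1 (Cripto, the NODAL co-receptor, -0.08), Dppa2 (0.05), Rif1 (-0.01) and Trim28 (0.08) were likewise close to 0 and not called.

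Sox2, the partner of OCT4, fell. It was at 349, 396 and 412 CPM in ESCs and at 124, 133 and 196 CPM in EpiLCs, a log2 fold change of -1.36 (SE 0.14, adjusted p = 2.63e-06). Foxd3, a forkhead factor, was called at -1.05, just past 2-fold, and its fold change was -0.92 without ESC library 3 and -0.97 without EpiLC library 1. Utf1, a chromatin-associated factor of pluripotent cells, rose from 35.1, 41.7 and 35.6 CPM to 443, 505 and 554 CPM (3.74, SE 0.12). Lin28a, an RNA-binding protein that blocks let-7 maturation, rose from 87.5, 98.5 and 82.1 CPM to 721, 814 and 690.4 CPM (3.05, SE 0.11). Both were raised in each clone without overlap. Dppa4 (1.01, and 0.98 without ESC library 3 or EpiLC library 2) and Zfp462 (1.05) sat at the 2-fold limit, and Fut4, at under 1 CPM in each library, was called at 2.73 (SE 0.58).

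Formative genes rose. Of 20 formative transcription factors tested, 14 rose and 3 fell, with a median log2 fold change of 2.36, and of 16 tested formative markers 11 rose and 2 fell, with a median of 3.74. The background share of genes that rose was 13.2%. Otx2, the homeobox factor that redirects OCT4 to new enhancers on exit, went from 8.73, 13.5 and 8.97 CPM to 153, 187 and 156 CPM (log2 fold change 3.99, SE 0.20, adjusted p = 2.08e-09). The annotation places Otx2 at chr14:48657677-48673819 and Fgf5 at chr5:98254184-98277030. Pou3f1, also called OCT6, went from 1.84, 2.15 and 2.28 CPM to 83.6, 94.9 and 70.5 CPM (5.31, SE 0.13). Fgf5, the classical postimplantation epiblast marker, went from 0.447, 0.390 and 0.693 CPM to 46.8, 52.4 and 33.2 CPM, a change of 6.42 (SE 0.46, adjusted p = 1.94e-07). The lowest EpiLC library of each was well above the highest ESC library.

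Other factors of this group covered a wide range. Sox3 rose by 5.63 (SE 0.22), Lef1, a DNA-binding partner of β-catenin, by 5.08 (SE 0.21), and Grhl2, an epithelial grainyhead factor, by 3.67 (SE 0.37) on the log2 scale. Etv4, an ETS factor downstream of ERK, rose by 3.61, Sall2 by 3.04, Sox4 by 2.97, Tcf15 by 2.62, Foxp1 by 2.11, Rarg by 1.91, Sox11 by 1.70 and Zic5 by 1.53. Zic2 (0.91, and 1.0 without ESC library 3) and Etv5 (0.75) were higher at the adjusted p but under 2-fold with all libraries, and Tead2 was not called (0.23, adjusted p = 0.0604).

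The 3 listed factors that fell were Sall3, Hmga2 and Zscan4c. Sall3 went from 26.8, 24.8 and 28.0 CPM to 3.71, 3.39 and 4.57 CPM (-2.78, SE 0.13) and Hmga2, a chromatin protein that let-7 targets, from 32.0, 30.0 and 38.5 CPM to 12.4, 9.50 and 10.6 CPM (-1.63, SE 0.11). Zscan4c is better known for the 2-cell-like state than for formative cells and was at under 1 CPM throughout. Among markers, Nodal (-1.41) and Dkk1 fell, the latter with 46 reads in ESCs and 3 in EpiLCs, a ratio of 14.1 (95% counting interval 4.54 to 70.9). Pim2, a kinase, rose by 3.95, Igfbp5 by 5.16, Fgf15 by 6.18 and Sfrp2 by 3.74, and Wnt8a was called at 1.5 (SE 0.51) on under 1 CPM. Its adjusted p of 0.017 rose to 0.0636 without ESC library 2 and to 0.0622 without ESC library 3.

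Genes of the later, gastrulating epiblast were on the whole not raised. Of 16 tested, 8 fell and 3 rose, with a median of -1.13. T (Brachyury), the primitive streak factor, was at 1.34, 2.54 and 2.08 CPM in ESCs and at 0.710, 0.242 and 0.235 CPM in EpiLCs (-2.32, SE 0.41, adjusted p = 1.34e-04). Eomes, a T-box factor of mesendoderm (-1.4), fell, as did the homeobox genes Gsc (-6.15), Hesx1 (-4.89) and Nkx1-2 (-5.84). Mesp1, Foxa2 and Msgn1 had at most 6 reads in any F/F library and were not tested.

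The parts of the medium changed together, so no change given here can be assigned to 1 of them. Of 14 feedback genes of ERK signalling, 6 rose, 1 fell and 7 were not called, with a median of 0.68, and of 18 ERK targets 8 rose and 1 fell, with a median of 0.82. Dusp6, the phosphatase that acts on ERK, was at 12.9, 15 and 15.5 CPM in ESCs and at 93.0, 103 and 101 CPM in EpiLCs (2.78, SE 0.10, adjusted p = 2.19e-12). Spry4, a Sprouty feedback inhibitor, went from 3.08, 3.76 and 2.08 CPM to 32.0, 28.8 and 30.7 CPM (3.36, SE 0.15). Dusp4 went from 1.79, 2.49 and 2.18 CPM to 23.3, 29.4 and 31.7 CPM (3.70, SE 0.23). Each of the 3 was several-fold higher in each clone.

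Members of the same families did not move alike. Spry1 (1.59) and Spred1 (1.52) rose, while Spry2 was lower by 0.64 (adjusted p = 1.43e-05, under 2-fold) and Il17rd, also called Sef, was at 101, 107 and 106 CPM and then 101, 108 and 98.9 CPM, groups that overlapped. Dusp14 fell from 37.4, 36.2 and 38.5 CPM to 6.93, 6.93 and 5.10 CPM (-2.56, SE 0.17). Of the immediate targets, Egr1 (2.06), Srf (1.43), Etv1 (1.38), Ccnd1 (1.55) and Myc (2.46) rose.

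Of 18 tested FGF ligands and receptors 7 rose, 1 fell and 10 were not called. Besides Fgf5 and Fgf15, Fgf13 rose by 2.72 and the receptor Fgfr2 by 2.08 (SE 0.22), from 5.85, 2.98 and 3.02 CPM to 18.5, 15.6 and 16.3 CPM. Fgf10, a ligand of Fgfr2, fell from 14.1, 12.6 and 9.26 CPM to 0.218, 0.242 and 0 CPM (-6.17, SE 0.37).

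Of 16 tested Wnt targets, transcripts that β-catenin signalling induces, 9 fell and 4 rose, with a median of -1.77. Axin2, the feedback scaffold that most cells induce on Wnt signalling, was at 83.4, 96.1 and 96.1 CPM in ESCs and at 7.64, 8.0 and 8.74 CPM in EpiLCs (-3.50, SE 0.09, adjusted p = 1.30e-13). Notum, a secreted enzyme that inactivates Wnt ligands, went from 59.2, 71.0 and 58.7 CPM to 2.89, 3.78 and 3.52 CPM (-4.21, SE 0.17). Sp5, a zinc-finger repressor directly under β-catenin, had 935 reads in ESCs and 3 in EpiLCs, a ratio of 287 (95% counting interval 97.9 to 1393). No EpiLC library reached the level of any ESC library in these 3 genes.

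The promoter of Sp5 is printed because it holds the letters that TCF and LEF factors bind, CTTTGAT, here in capitals at -104 to -98 from the start. The sequence is from RefSeq, build GRCm38.p6, chr2:70474673-70474972 on the plus strand. The motif, searched on both strands, occurs in 3.72% of the 27025 promoters. Among named genes it also stands in the promoters of Cxcl12 and Pim2, which rose, and of Cdk4, which was not called.
Sp5: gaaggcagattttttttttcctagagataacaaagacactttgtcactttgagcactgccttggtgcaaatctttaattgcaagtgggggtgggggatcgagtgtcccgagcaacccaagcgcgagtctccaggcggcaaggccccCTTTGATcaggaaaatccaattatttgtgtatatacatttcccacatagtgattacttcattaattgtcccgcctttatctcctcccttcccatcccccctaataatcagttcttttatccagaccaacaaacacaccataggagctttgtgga

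The 4 Wnt targets that rose included Lef1 and Ccnd1, which other inputs also induce, and Nkd2, a Dishevelled antagonist, which rose by 3.53. Tcf7 was higher by 0.40, under 2-fold. Within the pathway itself, Ctnnb1, which encodes β-catenin, was at 995, 1021 and 1075 CPM and then 968, 1029 and 978 CPM, groups that overlapped, and 9 of 25 components rose and 5 fell. The receptor Fzd7 rose from 39.1, 43.0 and 42.6 CPM to 257, 281 and 282 CPM (2.72, SE 0.07), and Fzd2 by 2.26. Sfrp1 and Sfrp2, which encode secreted Wnt antagonists, went in opposite directions: Sfrp1 fell from 544, 630.5 and 573 CPM to 93.3, 98.8 and 116 CPM (-2.51) and Sfrp2 rose from 1.39, 1.46 and 1.39 CPM to 18.8, 20.3 and 17.8 CPM (3.74). Porcn, the acyltransferase needed to secrete Wnts, fell by 2.15.

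Of 21 tested genes of LIF signalling 10 fell and none rose, with a median of -0.99. Socs3, the direct feedback inhibitor of STAT3 signalling, went from 58.6, 58.3 and 61.7 CPM to 15.1, 17.8 and 19.3 CPM (-1.78, SE 0.10, adjusted p = 4.38e-10). Il6st, which encodes the shared receptor subunit gp130, went from 158, 159 and 150.5 CPM to 51.4, 48.4 and 62.3 CPM (-1.53, SE 0.11). Bcl3, an atypical IκB protein induced by LIF, fell by 4.42 (SE 0.23). Klf4, Klf5 and Tfcp2l1, described above, are members of both lists.

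**Figure D3:**
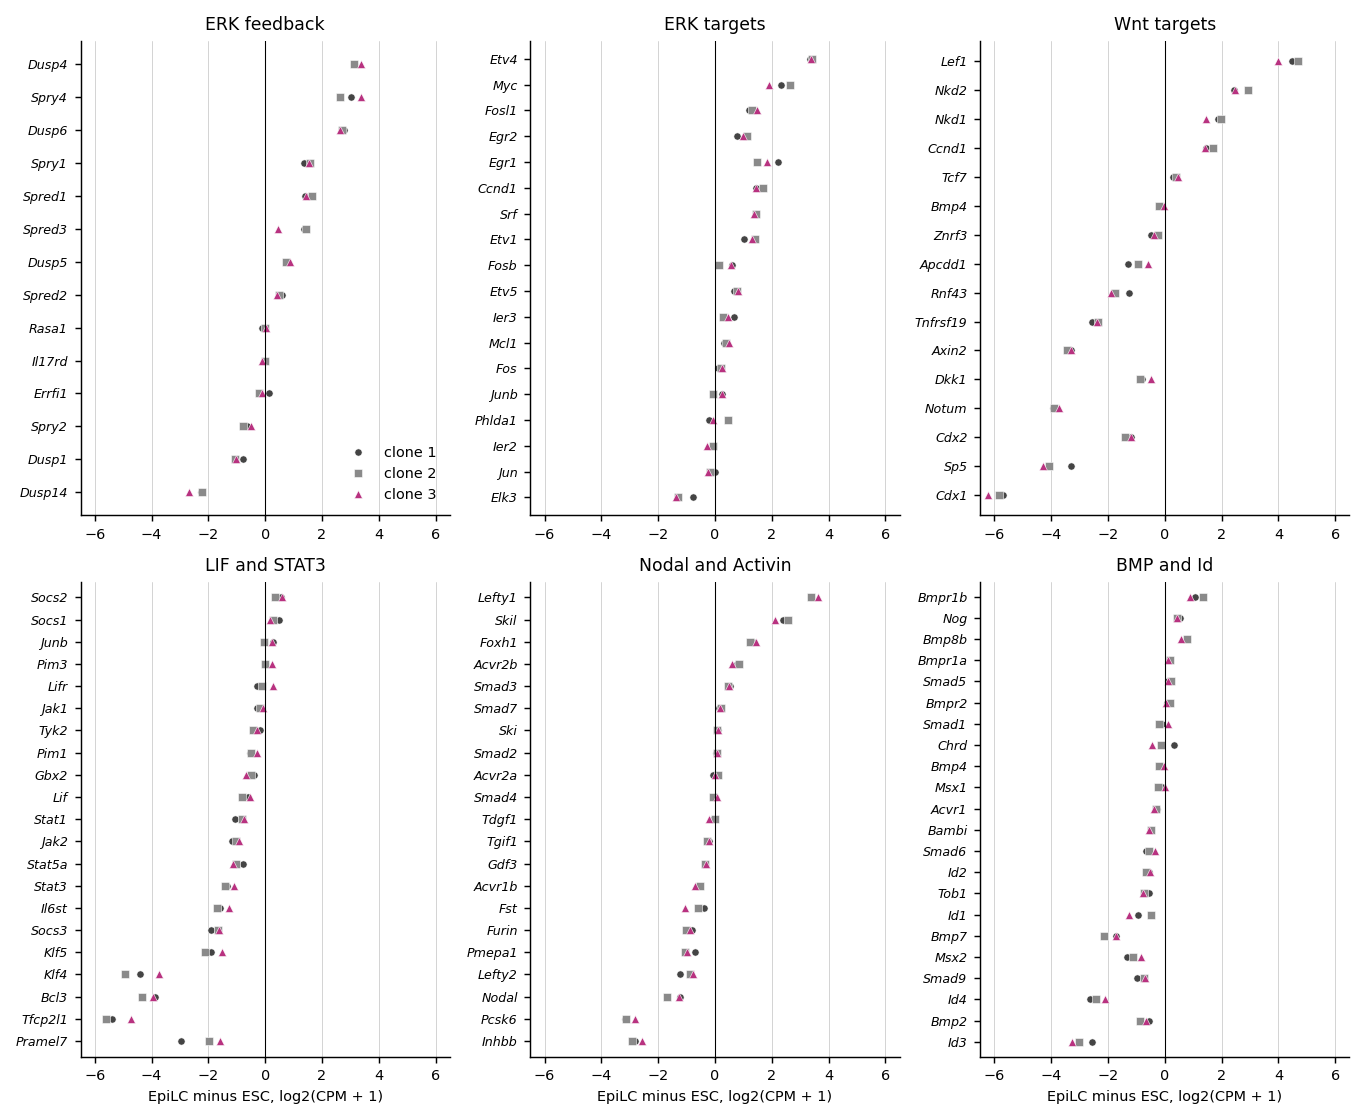
Response of the tested members of 6 signalling lists, apart from 1 gene that is not reported here, in each of the 3 MTCH2 F/F clones, as the log2(CPM + 1) of the EpiLC library minus that of the ESC library with the same number. Points to the right of 0 are higher after priming. Wnt target and LIF and STAT3 members lie mostly to the left, and ERK feedback and target members more often to the right, in each clone.

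In the Nodal and BMP branches of TGFβ signalling genes went both ways. Of 22 Nodal and Activin genes 4 rose and 3 fell (median -0.04), and of 22 BMP and Id genes 3 rose and 7 fell (median -0.44). Over all tested genes 13.2% rose and 14.2% fell. The Nodal and Activin shares, 18.2% and 13.6%, were near these, as was the 13.6% of BMP and Id genes that rose. The share of BMP and Id genes that fell was 31.8%. Skil, a SMAD corepressor and feedback target, rose from 56.9, 54.3 and 65.6 CPM to 301, 326 and 290.5 CPM (2.38, SE 0.08). Lefty1, a secreted NODAL antagonist, went from 8.04, 4.05 and 2.18 CPM to 92.1, 51.8 and 38.5 CPM (3.68, SE 0.77, adjusted p = 0.00273). Clone 1 had the highest level of Lefty1 in both media.

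Nodal itself fell from 124, 141 and 129.5 CPM to 52.4, 43.2 and 53.3 CPM (-1.41, SE 0.09), Inhbb, an activin subunit, from 6.90, 7.37 and 9.21 CPM to 0.109, 0.0970 and 0.704 CPM (-4.74), and Pcsk6, a convertase of TGFβ-family ligands, from 247, 250.3 and 250.4 CPM to 26.3, 27.9 and 34.4 CPM (-3.08). Id3, an inhibitor of helix-loop-helix factors downstream of BMP, fell from 17.7, 22.5 and 18.1 CPM to 2.18, 1.89 and 0.997 CPM (-3.50, SE 0.27), and Id4 fell by 2.82. Id2 was lower by 0.64, under 2-fold. Bmp7 fell by 1.94.

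Of 19 tested Notch genes 6 rose and 2 fell. Dll1, a ligand, was at 0.744, 0.293 and 0.644 CPM in ESCs and at 72.8, 85.0 and 98.5 CPM in EpiLCs (7.24, SE 0.22, adjusted p = 5.67e-13), and the ligands Dll3 and Jag2 rose by 4.57 and 1.73. Hes1, which Notch and other pathways induce, fell from 78.5, 84.2 and 90.1 CPM to 29.0, 26.6 and 29.7 CPM (-1.57, SE 0.07). Hes6, which counters HES1, rose from 8.53, 8.05 and 7.88 CPM to 125, 140.3 and 135 CPM (4.03, SE 0.09). Notch3 rose by 1.43 and Notch4 fell by 3.02.

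Of 20 genes of DNA methylation 5 rose, 3 fell and 12 were not called. Both de novo methyltransferases rose. Dnmt3a went from 36.9, 29.1 and 30.8 CPM to 1022, 1190.5 and 1046 CPM (5.07, SE 0.16, adjusted p = 8.59e-12) and Dnmt3b from 62.5, 56.0 and 50.9 CPM to 1792, 1979 and 1583 CPM (4.98, SE 0.16). Their catalytically inactive cofactor Dnmt3l went from 37.9, 29.0 and 19.2 CPM to 393, 377 and 381 CPM (3.74, SE 0.21). Each of the 3 was at least several-fold higher in each clone. Tet2, one of the enzymes that oxidize 5-methylcytosine, fell from 625, 551 and 581 CPM to 48.3, 42.6 and 68.8 CPM (-3.46, SE 0.18), and Tet3 rose by 1.84.

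Germline genes, many of which are silenced by promoter methylation, did not go one way: 7 of 26 rose and 4 fell, with a median of 0.31, which was -0.011 when genes of low counts were kept in the test. The called shares were 26.9% and 15.4%, beside 13.2% and 14.2% of all tested genes. Mael (2.09) and Tdrd1 (2.39), which serve the piRNA pathway, rose, Dmrtb1 rose by 1.96, and Fkbp6 (-2.11) and Rpl10l (-1.19) fell. Of 24 tested Polycomb genes 1 rose and 3 fell, 4.2% and 12.5%, both under the shares of all tested genes. Phf19 rose from 1.79, 3.42 and 3.07 CPM to 12.8, 11.9 and 14.4 CPM (2.23, SE 0.27), and its paralogue Mtf2 fell from 481, 479 and 539 CPM to 203, 221 and 244 CPM (-1.17, SE 0.07). Both recruit PRC2 to chromatin. Eed (-0.77) and Suz12 (-0.68), core PRC2 subunits, were lower but under 2-fold.

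Hox genes fell. Of 25 tested 20 fell and none rose, with a median of -3.10, and 13 more had too few reads to be tested. Hoxb9 went from 24.5, 19.12 and 23.0 CPM to 4.97, 3.49 and 3.64 CPM (-2.46, SE 0.18) and Hoxc13 from 15.4, 15.3 and 16.9 CPM to 1.64, 1.6 and 2.52 CPM (-3.06, SE 0.16). Hoxc12 had 307 reads in ESCs and 3 in EpiLCs, a ratio of 94.2 (95% counting interval 31.9 to 459). The summed level of the tested members was 69 to 82.5 CPM in ESCs and 8.87 to 11.4 CPM in EpiLCs.

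Among imprinted genes 14 of 30 rose and 3 fell, with a median of 1.0. The non-coding RNAs Meg3 and Rian of the Dlk1-Meg3 domain rose by 1.58 (SE 0.16) and 1.77 (SE 0.16), Meg3 from 189.7, 276 and 324 CPM to 749.6, 815 and 796 CPM. Nnat rose by 3.89, Mest by 2.49 and Cdkn1c, a cyclin-dependent kinase inhibitor, by 2.30. Plagl1, a zinc-finger factor, fell from 231, 156 and 286 CPM to 5.90, 3.54 and 6.80 CPM (-5.39, SE 0.44). Clone 2 had the lowest Plagl1 in both media.

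**Figure D4:**
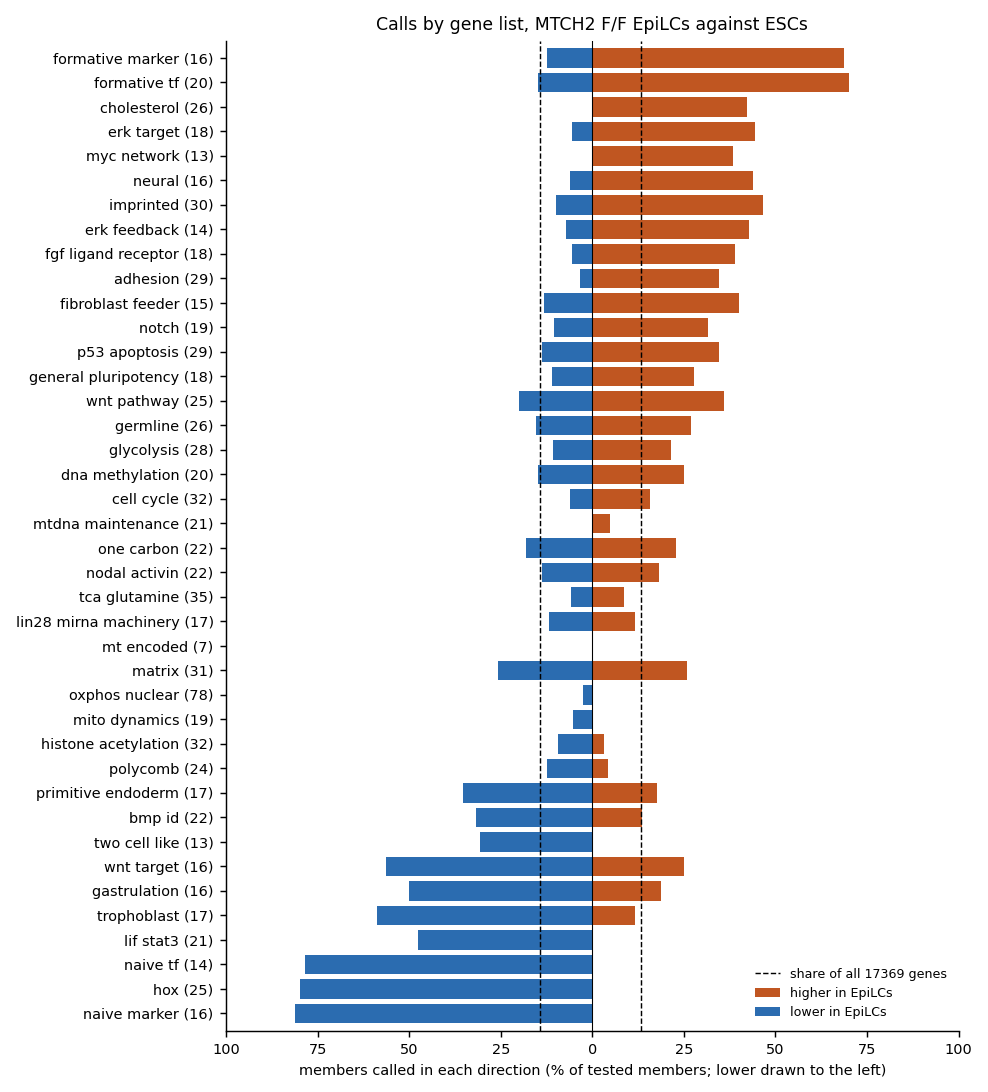
Share of the tested members of each gene list that rose (right, orange) or fell (left, blue) in MTCH2 F/F EpiLCs against ESCs, in percent, with the number tested in parentheses. The dashed lines mark 13.2% and 14.2%, the shares of all 17369 genes. Naïve and Hox lists extend furthest to the left and formative lists furthest to the right.

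Of 29 epithelial adhesion genes 10 rose, 1 fell and 18 were not called, with a median of 0.44, and at the adjusted p alone 14 were higher and 7 lower. Cdh1, which encodes E-cadherin, was at 879, 959.9 and 827 CPM in ESCs and 953, 982 and 889 CPM in EpiLCs, overlapping groups with a log2 fold change of 0.08 (adjusted p = 0.346). Epcam, an epithelial surface protein, rose from 63.2, 50.4 and 56.3 CPM to 313, 287 and 286 CPM (2.38, SE 0.13), and Cldn6, a tight junction protein, from 4.52, 3.90 and 4.46 CPM to 83.7, 75.9 and 66.3 CPM (4.13, SE 0.16). Esrp1, a splicing factor that sets epithelial isoforms, went from 1.54, 1.17 and 1.39 CPM to 128, 127 and 121 CPM (6.51, SE 0.18, adjusted p = 5.50e-13). Cdh3 rose by 3.66, Cldn7 by 2.97 and the keratin Krt18 by 2.15. N-cadherin, Cdh2, was higher by 0.84, under 2-fold.

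Extracellular matrix genes were split, with 8 of 31 rising and 8 falling. Those that fell include abundant matrix components. Fn1, fibronectin, went from 4294, 4808 and 5319 CPM to 879, 965 and 1265 CPM (-2.21, SE 0.12), and Nid1, nidogen, from 710.3, 774 and 846 CPM to 37.1, 42.1 and 59.1 CPM (-4.08, SE 0.19). Lama1 (-2.29), Lamc1 (-1.49) and Sparc (-2.19) fell too. Col4a1, a chain of collagen IV, rose from 9.97, 10.1 and 8.57 CPM to 53.6, 55.4 and 50.3 CPM (2.47, SE 0.12), and the gelatinase Mmp2 rose by 2.82. Lamb1 was higher by 0.92, under 2-fold.

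Of 19 genes of mitochondrial dynamics, Mfn1 was the one member called. Mfn1, an outer membrane GTPase that fuses mitochondria, was at 244, 234 and 234 CPM in ESCs and at 80.6, 71.7 and 85.6 CPM in EpiLCs (-1.58, SE 0.07, adjusted p = 2.41e-11). Its paralogue Mfn2 was at 41.3, 40.7 and 41.2 CPM and then 42.5, 44.7 and 41.2 CPM, overlapping groups with a change of 0.06 (adjusted p = 0.482). Opa1, which fuses inner membranes, was higher by 0.40 (adjusted p = 1.26e-05) and Dnm1l, which encodes the fission protein DRP1, by 0.09 (adjusted p = 0.173). Mief2, a DRP1 receptor, had a log2 fold change of -0.97, just short of 2-fold, which was -1.02 without ESC library 2 and -1.0 without EpiLC library 3. Mtch2 (-0.53) and its paralogue Mtch1 (-0.40) were lower in EpiLCs at the adjusted p and under 2-fold.

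All 7 tested mitochondrially encoded transcripts were lower at the adjusted p and none reached 2-fold, with log2 fold changes from -0.73 (mt-Nd6) to -0.44 (mt-Co1). mt-Cytb was at 3044, 3113 and 3111 CPM in ESCs and at 1969, 2124 and 2026 CPM in EpiLCs. The other 6 listed ones, mt-Co2 and mt-Co3 among them, had at most 8 reads in any F/F library and were not tested. The share of counts on mitochondrially encoded genes in the F/F libraries therefore holds next to nothing from these 6. Why their counts were so low was not tested. Of 78 nuclear genes of oxidative phosphorylation 38 were lower and 5 higher at the adjusted p, beside 32.1% and 31.9% of all genes, and 2 were called. These were Cox7a1, an isoform known from muscle, which fell from 20.5, 21.8 and 22.6 CPM to 3.06, 2.33 and 2.05 CPM (-3.12, SE 0.22), and Cox5a (-1.29). Of 21 genes of mitochondrial DNA maintenance Top1mt, a mitochondrial topoisomerase, was called, at 1.02, with 0.95 to 1.0 when ESC library 1, EpiLC library 1 or EpiLC library 3 was left out.

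Glucose metabolism genes moved in both directions. Of 28 tested 6 rose and 3 fell, and at the adjusted p alone 17 were higher and 5 lower. The called shares were 21.4% and 10.7%, beside 13.2% and 14.2% of all tested genes. Slc2a3, the glucose transporter GLUT3, fell from 2676, 2358 and 2632 CPM to 418, 331 and 565 CPM (-2.55, SE 0.15) and Hk1 from 217, 234 and 251 CPM to 55.8, 51.5 and 62.7 CPM (-2.05, SE 0.08). Further along, Pfkl rose by 1.68, Ldha, a lactate dehydrogenase subunit, from 281, 238 and 234 CPM to 933, 1011 and 741 CPM (1.84, SE 0.14), and Slc16a3, the lactate exporter MCT4, from 8.04, 9.03 and 8.07 CPM to 197, 223 and 166 CPM (4.54, SE 0.13). Pdk1, the kinase that inhibits pyruvate dehydrogenase, rose from 21.5, 22.1 and 25.1 CPM to 207, 233 and 233 CPM (3.29, SE 0.10). Pkm was higher by 0.87, under 2-fold.

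Of 35 genes of the tricarboxylic acid cycle and of glutamine use 3 rose and 2 fell. These were 8.6% and 5.7%, beside 13.2% and 14.2% of all tested genes. Slc7a11, the cystine-glutamate antiporter, rose by 2.74, Slc38a2, a glutamine carrier, by 1.32 and Gpt2 by 1.13. Asns, asparagine synthetase, fell from 1194, 1214 and 1213 CPM to 412, 410.4 and 472 CPM (-1.48, SE 0.10), and Idh2 fell by 1.22. In serine and one-carbon metabolism 5 of 22 rose and 4 fell, 22.7% and 18.2%. Phgdh (1.54), Psat1 (1.14) and Mthfd2 (1.53), which make serine and formate, and Gldc (1.88) rose. Tdh, Amt (-1.24) and Nnmt, the nicotinamide methyltransferase (-6.16, SE 0.35), fell. Acly was higher by 0.46 and Acss1, the mitochondrial acetyl-CoA synthetase, fell by 2.12. Of the 32 genes of histone acetylation in which they were listed 1 rose and 3 fell, 3.1% and 9.4%. The others named were Kat6b (-2.05) and Hdac7 (-1.87).

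Of 26 genes of cholesterol and fatty acid synthesis 11 rose and none fell, with a median of 0.72, and 21 were higher at the adjusted p. Lss, lanosterol synthase, went from 99.98, 102 and 101 CPM to 425, 422 and 344 CPM (1.98, SE 0.23). EpiLC library 3 was the lowest of the 3 EpiLC libraries in 24 of the 26 genes. It was the lowest in 5975 of all 17369 tested genes and in 1122 of the 2285 called higher in EpiLCs.

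Of 32 cell cycle genes 5 rose and 2 fell, and the share that rose was near the 13.2% of all tested genes. Ccnd1 went from 63.1, 66.9 and 60.8 CPM to 175, 217 and 165 CPM (1.55, SE 0.15) and Ccnd2 from 4.37, 2.59 and 2.97 CPM to 47.5, 40.8 and 32.9 CPM (3.61, SE 0.24). The third D-type cyclin, Ccnd3, fell from 238, 245 and 273 CPM to 85.8, 80.9 and 101 CPM (-1.5, SE 0.10). Ccne1 rose by 1.5. Of 13 genes of the MYC network 5 rose and none fell, among them Myc (2.46, SE 0.17) and Mycn (1.85, SE 0.10).

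Of 29 genes of the p53 pathway and apoptosis 10 rose and 4 fell. Pmaip1 (NOXA, 2.34), Bbc3 (PUMA, 1.64) and Bcl2l11 (BIM, 2.0), which promote cell death, rose. The Gadd45 genes, which encode small stress sensor proteins, went apart. Gadd45g was at 0.943, 0.732 and 0.892 CPM in ESCs and at 86.7, 94.9 and 97.6 CPM in EpiLCs (6.76, SE 0.24, adjusted p = 1.24e-11), Gadd45a rose by 1.97 and Gadd45b fell by 2.73 (SE 0.17). The promoter of Gadd45g is printed beside that of Zfp42 above because it also holds an octamer match on the opposite strand, in capitals, at -103 to -96 from its start, while the 2 genes went in opposite directions. It is RefSeq's, build GRCm38.p6, chr13:51846425-51846724 on the plus strand.
Gadd45g: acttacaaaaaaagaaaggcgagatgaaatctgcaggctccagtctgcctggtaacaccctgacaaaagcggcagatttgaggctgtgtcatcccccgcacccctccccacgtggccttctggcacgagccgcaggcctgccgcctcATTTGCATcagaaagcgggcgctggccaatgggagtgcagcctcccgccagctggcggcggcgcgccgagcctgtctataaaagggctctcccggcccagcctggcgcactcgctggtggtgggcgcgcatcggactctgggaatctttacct

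Lin28a was described above, and its paralogue Lin28b rose from 14.7, 15.3 and 14.6 CPM to 81.2, 86.6 and 78.2 CPM (2.46, SE 0.08). Of 17 genes of this group and of miRNA processing 2 rose and 2 fell. This was 11.8% each way, beside 13.2% and 14.2% of all tested genes. Dicer1 was higher by 0.71, Ago2 lower by 0.47 and Igf2bp1 not called (-0.03). Poly-A libraries do not measure mature miRNAs, and of 27 miRNA genes listed only 2 host transcripts had enough reads, while 20 others were counted at 3 reads or fewer in any F/F library. Mir124a-1hg fell by 3.28 (SE 0.21). Mir17hg, host of the miR-17-92 cluster on chromosome 14, which promotes growth, rose from 41.9, 39.5 and 32.7 CPM to 85.8, 100.3 and 96.2 CPM (1.31, SE 0.09, adjusted p = 4.81e-09), and its groups did not overlap. RefSeq places 11 mature miRNAs in it. The 6 main arms are printed to show which seeds this transcript carries, with bases 2 to 8 in capitals, and their own levels were not measured.
mmu-miR-17-5p: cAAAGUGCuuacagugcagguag
mmu-miR-20a-5p: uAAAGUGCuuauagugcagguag
mmu-miR-18a-5p: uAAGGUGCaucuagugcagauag
mmu-miR-19a-3p: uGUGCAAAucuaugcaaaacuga
mmu-miR-19b-3p: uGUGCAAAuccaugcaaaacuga
mmu-miR-92a-3p: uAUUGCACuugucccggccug
The seed AAAGUGC is shared by miR-17-5p and miR-20a-5p, and GUGCAAA by miR-19a-3p and miR-19b-3p.

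Markers of other cell types were measured beside these results, and their part in them was not tested. Of 15 tested fibroblast markers, listed since lines had been kept on fibroblast feeders, 6 rose and 2 fell, and their summed level was 57.3 to 65.1 CPM in ESCs and 85.7 to 98.8 CPM in EpiLCs. Fap and S100a4 had no reads in any F/F library, and Twist2, Lum, Prrx1 and Mgp had at most 5 in any. Thy1, which is also a known primed-state surface gene, rose by 4.05, Tagln by 3.04, and Pdgfrb fell by 4.95, while Col1a1 was lower by 0.88, under 2-fold. For trophoblast, 10 of 17 fell and 2 rose, with a summed level of 351 to 374 CPM against 237 to 252 CPM. Tfap2c fell from 103, 124 and 116 CPM to 5.30, 3.35 and 10.4 CPM, and the GATA factors Gata2 (-4.71) and Gata3 (-3.18) fell too. The 2 that rose were Krt18 and Cdh3.

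For primitive endoderm 6 of 17 fell and 3 rose, and the summed level was 1053 to 1127 CPM in ESCs and 1052 to 1072 CPM in EpiLCs. Lrp2, the endocytic receptor megalin, is also expressed in epithelia and rose from 22.2, 15.2 and 14.9 CPM to 570.3, 594 and 566 CPM (5.05, SE 0.14), while Gata4, an endoderm factor, was called at -1.05, with -1.0 without ESC library 2 and -0.97 without EpiLC library 3. Afp had at most 1 read in any F/F library. For neural genes 7 of 16 rose and 1 fell, with a median of 0.24 and a summed level of 139 to 164 CPM against 253 to 280.3 CPM. At the adjusted p alone 8 were higher and 4 lower, and 6 more had too few reads to be tested. Sox1 went from 4.02, 4.15 and 4.80 CPM to 19.7, 20.2 and 20.2 CPM (2.21, SE 0.17) and Neurod1 from 1.98, 1.85 and 1.93 CPM to 34.2, 36.6 and 38.9 CPM (4.24, SE 0.14). For the 2-cell-like state 4 of 13 fell and none rose.

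The 3 clones responded alike gene by gene. The correlation of the response across the 17369 genes, which are not independent and share their libraries' depth, was 0.969, 0.958 and 0.966 for the 3 pairs of clones. The 3 clones had the same sign in 14220 of 17369 genes, in 2278 of the 2285 called higher and in 2452 of the 2463 called lower. The last 2 counts follow in part from how those genes were called.

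The libraries differed in how far the naïve genes had fallen. Each clone gave 1 library per medium, so a difference between clones cannot be told apart from one between cultures or libraries. The median response of the 30 naïve factors and markers was -2.19, -2.46 and -1.69 in clones 1, 2 and 3, and EpiLC library 3 was the highest of the 3 EpiLC libraries in 25 of the 30. It was the highest in 37.9% of all tested genes and in 49.5% of those called lower in EpiLCs, and ESC library 3 was the highest ESC library in 15 of the 30. For Klf4 the values in EpiLC libraries 1, 2 and 3 were 23.0, 16.3 and 45.0 CPM, and for Nr0b1 they were 25.4, 26.9 and 50.5 CPM. EpiLC library 3 was also the highest in 18 of 21 LIF and STAT3 genes. ESC library 3 was the highest ESC library in 12 of these 21, and Klf4, Klf5 and Tfcp2l1 are in both lists. The 36 formative factors and markers had median responses of 2.36, 2.65 and 2.33. Without EpiLC library 3 there were 2333 genes higher and 2585 lower.

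**Figure D5:**
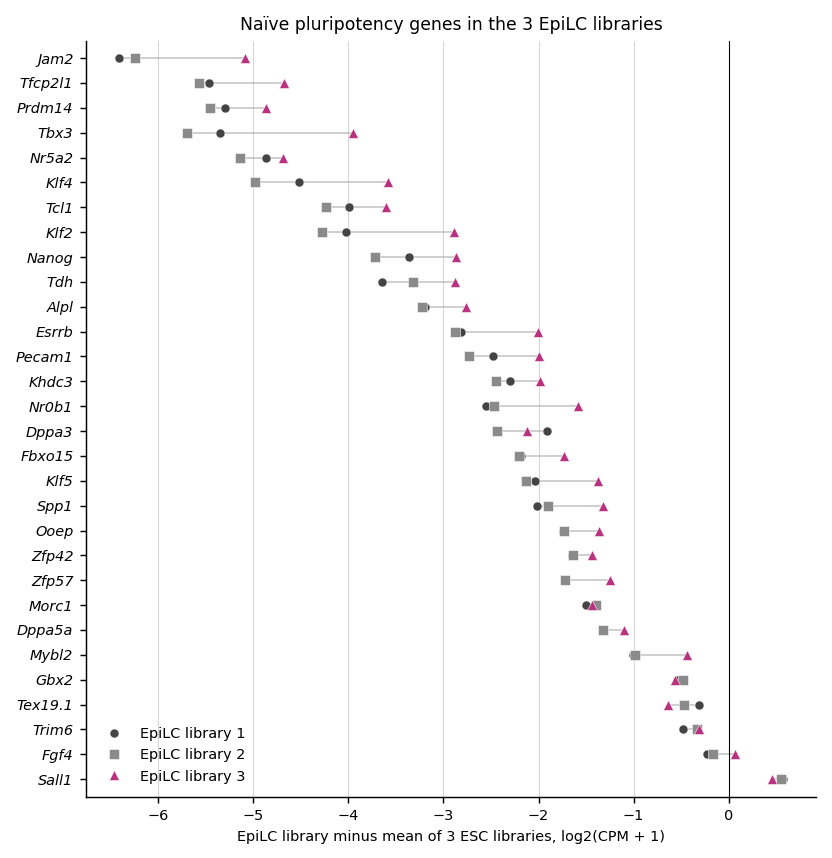
Each of the 30 naïve factors and markers in the 3 MTCH2 F/F EpiLC libraries, as log2(CPM + 1) minus the mean of the 3 ESC libraries, with 1 symbol per library. Library 3 lies furthest to the right, at the highest level, in 25 of the 30 genes.

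The rest of the series allows this response to be set beside that of MTCH2-/- cells in the same media. The difference between the genotypes in the response to A/F was tested as an interaction in the same fit, and 6079 genes (35%) passed the adjusted p and 2501 (14.4%) also differed by at least 2-fold. Among the 4748 genes called in MTCH2 F/F cells the share was higher: 3112 (65.5%) differed, 3098 of them with a change in MTCH2-/- cells that was smaller or of the other sign, and the counts for each group are read against these. Of the 30 naïve factors and markers 24 were called in MTCH2 F/F cells and 23 of these differed, each in that direction. The 30 genes had a median log2 fold change of -2.29 with Mtch2 intact and of -0.53 without it. For Dppa3 no difference was called (0.59, adjusted p = 0.171). Of the 36 formative factors and markers 30 were called and 25 differed, with medians of 2.79 and 1.36. These genes were counted because they were called in MTCH2 F/F cells, whose values enter both sides, so the shares are a description. Mitochondrially encoded genes took 0.521% to 0.601% of counts in the MTCH2-/- libraries, and the part of this in the comparison was not tested.

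Of 14 tested ERK feedback genes 5 differed between the genotypes at the adjusted p, beside 35% of all tested genes. Of 7 called in MTCH2 F/F cells 1 differed between the genotypes, Spry1 (difference -0.85, adjusted p = 0.0049). For Dusp6 the difference was 0.01 (SE 0.14, adjusted p = 0.955), for Spry4 -0.16 (SE 0.20, adjusted p = 0.589) and for Dusp4 -0.05 (SE 0.32, adjusted p = 0.927). Enpp2 averaged 128 CPM in F/F EpiLCs and 9.70 CPM in MTCH2-/- EpiLCs, with a difference in response of -4.16 (SE 2.84, adjusted p = 0.288). Car4 averaged 61.5 and 6.71 CPM, with a difference of -3.46 (SE 3.34, adjusted p = 0.465). Both genes were near 0 in the ESCs of both genotypes, and these tests, with errors this wide, do not show that the genotypes responded alike. For Wnt targets 11 of 13 called differed, Axin2 by 1.64 (adjusted p = 1.28e-07) and Notum by 4.36 (adjusted p = 3.20e-09), with the smaller change in MTCH2-/- cells. Krt18 was the one named gene that moved by at least 2-fold in opposite directions: its mean went from 7.50 to 33.3 CPM on priming of the floxed cells, and from 31.3 to 15.3 CPM on priming of the MTCH2-/- cells.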

How the data were processed

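Poly-A RNA of 12 libraries was sequenced as single 60-base reads on an Illumina HiSeq from an unstranded TruSeq kit. The authors aligned the reads to GRCm38 with TopHat2 2.0.10 and made the deposited raw counts per gene (Ensembl annotation) with HTSeq 0.6.1p1, whose strand setting the sources used here do not give. The deposited normalized signal columns, raw counts divided by DESeq2 1.6.3 size factors by the authors, were not tested. A deposited table of the authors' own fold changes and adjusted p-values was not used.

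Raw counts of 17369 of 46477 genes passed edgeR's filterByExpr and were fitted with edgeR 4.0.16 (R 4.3.3, TMM scaling, robust quasi-likelihood, 12 libraries in 4 groups, no block), with Benjamini-Hochberg adjustment over all tested genes. SE was taken as the absolute log2 fold change over the root of F. The difference between genotypes is the interaction contrast of the same fit, MTCH2-/- minus MTCH2 F/F. For genes with 3 reads or fewer in a group, ratios of summed reads with exact 95% intervals are given. On simulated counts at the real library sizes, 95% of 100 genes changed by 1.5 on the log2 scale were recovered. The simulation gave all genes the same dispersion and had no clone effect, so this share is not the power of the test on the real counts.

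The members and gene lists were chosen with earlier results of these data known. Named genes are all tested members of the 5 pluripotency lists and of a list of genes the study itself names, up to 6 members of each other list with the largest change among those with a group mean of at least 5 CPM, its 2 most abundant members, and the 15 largest changes in each direction among called genes whose 6 libraries average 10 CPM or more and do not overlap between media, predicted genes left out. A few genes that this rule names are not reported here, but they stay in the counts and medians of their lists. The replicate numbers pair the libraries as clones: the deviations from the group means of same-numbered libraries correlated at 0.101 to 0.574 over all pairs of groups, and at 0.195 to 0.297 between F/F ESCs and EpiLCs. Whether the 3 clones come from separate embryos is not stated, so p-values hold for these clones only. They rest on the spread between libraries of the same group, estimated over all 4 groups and without the pairing. Promoters were matched by symbol for 70.5% of named genes, under the 80% set as a minimum, so promoters of gene sets were not compared. Alternatives were RLE scaling, other filters, DESeq2 1.42.0, the 6 F/F libraries alone, a replicate block, other fold thresholds and leaving out each F/F library.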

Additional observations from a re-analysis of the deposited data

Results flagged for a closer look

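The response to priming differed between the genotypes by at least 2-fold, at an adjusted p under 0.05 in edgeR's interaction test, for 2501 of 17369 genes. Of the 4748 genes called in MTCH2 F/F cells 3112 had a difference at the adjusted p. Krt18 had a difference of -3.18 (SE 0.19, adjusted p = 1.27e-08 by the same test), from a log2 fold change of 2.15 in MTCH2 F/F cells and of -1.03 in MTCH2-/- cells. Both genotypes were sampled in 3 libraries per medium.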

How the results depend on the processing

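With a stricter filter of at least 10 CPM in at least 3 libraries, 997 genes were higher and 1158 lower in EpiLCs and 1120 differed between genotypes, since fewer genes were tested. Without a fold minimum these counts were 5538, 5581 and 6079, and 629 list members were called in place of 327. A test against a 2-fold change left 909 genes with a difference between genotypes. Leaving out each F/F library in turn gave 2231 to 2357 genes higher, 2423 to 2585 lower, 2302 to 2539 with a genotype difference and 321 to 332 list members called. With the replicate block 2309 genes were higher and 2489 lower, and with the block in the 6 F/F libraries alone 2131 and 2275. In the 12-library fit the replicate block changed the call of 1 of the 336 named genes, Xist (1.05, adjusted p = 0.0377, against 1.25 and 0.259 without it, edgeR), and in the 6-library fit that of Dppa4 (0.996). The median of the germline list was -0.011 without a filter, and that of the primitive endoderm list was 0.22 without a filter and 0.93 with the stricter one, against 0.31 and -0.63, because other members entered or left the test. Of the 336 named genes, none that was called in the main fit or the alternative changed direction between them. Changes of sign in genes called in neither fit were not counted. DESeq2 gave 2272 higher and 2387 lower, of which 2244 and 2379 were shared.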

Other observations

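Some genes differed between the clones in both media. Ddx3y, a Y-linked helicase gene, was at 56.5, 95.9 and 12.4 CPM in ESC libraries 1, 2 and 3 and at 46.3, 72.2 and 12 CPM in EpiLC libraries 1, 2 and 3. Eif2s3y, also Y-linked, was at 31.7, 65.3 and 2.03 CPM and then at 33.2, 53 and 2.46 CPM. Clone 3 was lowest and clone 2 highest for both genes in both media. Xist, the RNA that coats the inactive X chromosome, was at 9.18, 6.83 and 5.89 CPM in ESCs and at 33.4, 8.97 and 9.73 CPM in EpiLCs, so EpiLC library 1 stood above the other 5. Small shifts also ran over whole chromosomes. For 529 chromosome 8 genes the median log2 deviation from the group mean was 0.060 in ESC library 2 and -0.072 in ESC library 3. In EpiLC libraries 2 and 3 it was 0.035 and -0.049. For 332 X-linked genes it was 0.103 in ESC library 1 and 0.066 in EpiLC library 1. What lies behind these shifts was not tested.

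Rpl38, a ribosomal protein gene chosen after its values were seen, went in opposite directions between clones. It was at 27.5, 30.6 and 4.71 CPM in ESCs and at 5.95, 6.5 and 29.1 CPM in EpiLCs, so clones 1 and 2 had responses of -2.04 and -2.08 and clone 3 of 2.40 on the log2(CPM + 1) scale.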
